A study of Mus musculus with 25 samples.

Results

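The chromatin effect of Hmgb2 on top of Neurog2 was examined for EGF+bFGF culture at 45658 of the 45672 accessible sites of an ATAC-seq experiment on mouse astrocytes. Every site of the deposited peak table was taken, except 1 site on chrM and 13 sites that share sequence with the coding sequence of Hmgb2, to keep reads from the transduced Hmgb2 insert from being counted as open chromatin. Left in were 3 sites within 500 bp of such a match and 15 with a weaker match. Neurog2+Hmgb2 cells had received both factors, and Neurog2 cells had received Neurog2 alone, with 3 libraries in each group. Hmgb2 cells (4 libraries) and Control cells, transduced with a GFP virus (3 libraries), of the same culture, and the same pair of Neurog2 groups in bFGF culture (3 libraries each), stand beside them. Control cells of bFGF culture (3 libraries) are the reference for sites called there. Hmgb2 cells of bFGF culture (3 libraries) enter the fit.

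All cells came from wild-type C57BL/6J pups at postnatal day 5 to 6 and had been expanded for 10 days, with EGF and bFGF at 10 ng/ml each or with bFGF at 10 ng/ml alone. They were transduced with retroviral vectors derived from Moloney murine leukemia virus, which carry the factor under the ubiquitously active pCAG promoter with a fluorescent reporter. In the study's vectors Neurog2 comes with dsRED and Hmgb2 with GFP. Neurog2+Hmgb2 cells thus carried a second virus and reporter, which the study does not describe for Neurog2 cells. The part of that second virus was not tested. After 48 h they were sorted by fluorescence, and 50000 cells went into each library. GEO's label names cortical grey matter as the source, whereas the study's methods name the white matter of the cerebral cortex. Nothing in the labels assigns the libraries of a group to separate animals or cultures, and p-values therefore describe the scatter between libraries, part of which may be technical.

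Neurog2 is a proneural basic helix-loop-helix transcription factor that binds E-boxes, short sites of the form CANNTG, and converts cultured astrocytes into neurons. Hmgb2 belongs to the high mobility group proteins, which bend DNA with little sequence preference and loosen chromatin, and it is abundant in dividing and neurogenic cells. ATAC-seq measures how readily a transposase inserts into chromatin, and open promoters and enhancers give strong signal. All values below are rlog values, a log2-scale signal that the authors made from read counts per site. A difference of 1 is a doubling of that signal, and rlog shrinks the differences of weak sites.

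Signal over the Hmgb2 coding sequence followed the labels, and signal over the Neurog2 exon did not in every library. The sites that share the Hmgb2 coding sequence (630 bases) are Hmgb2 exons on chr8 and intron-less copies elsewhere, chiefly on chr4 and chr10. The sequences around an exon junction show why a read of the insert can map to either place: the gene holds an intron of 82 bases, in capitals, that the copy in Gm4739 on chr10 lacks, and over the 90 coding bases shown the copy has 0 differences.
Hmgb2 gene, chr8:57513163-57513334, plus strand: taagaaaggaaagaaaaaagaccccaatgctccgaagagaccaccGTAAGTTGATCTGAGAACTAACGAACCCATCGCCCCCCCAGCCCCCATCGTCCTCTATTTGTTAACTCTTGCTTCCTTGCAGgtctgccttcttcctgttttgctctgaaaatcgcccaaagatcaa
Gm4739 copy, chr10:26108040-26108129, plus strand: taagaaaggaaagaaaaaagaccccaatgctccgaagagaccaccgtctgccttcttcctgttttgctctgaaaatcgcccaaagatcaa

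The copy on chr10 (chr10:26107693-26108488) had 11.58, 12.65 and 10.78 in Neurog2+Hmgb2 cells, against 5.91, 5.24 and 5.74 in Neurog2 cells. The groups lay far apart, and the difference of 6.04 (SE 0.86, limma adjusted p = 0.00397) was the largest of all sites. Averaged over the 6 sites that cover more than 600 bases of the coding sequence, the signal was 9.44, 10.43 and 8.55 with Neurog2+Hmgb2, 11.54, 9.46, 9.49 and 7.22 with Hmgb2, 4.69, 4.54 and 4.88 with Neurog2, and 5.76, 6.01 and 4.43 with Control. Neurog2+Hmgb2 libraries overlapped with Hmgb2 libraries and stood above all Neurog2 and Control libraries.

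Over the single coding exon of Neurog2 (chr3:127633550-127634928), which remained among the 45658 sites, the signal was 13.32, 16.06 and 14.57 in Neurog2+Hmgb2 cells, against 13.84, 15.61 and 12.20 in Neurog2 cells. The groups overlapped, with a difference of 0.76 (SE 1.29, limma adjusted p = 0.979). The libraries labelled Hmgb2 had 12.32, 6.77, 7.01 and 8.43, and the libraries labelled Control had 10.32, 10.49 and 7.34. The library labelled Hmgb2 replicate 1, at 12.32, lay above the lowest Neurog2 library and so went against its label. In bFGF culture the library labelled Hmgb2 replicate 1 had 12.70, and that labelled Neurog2 replicate 2 had 10.60. Groups are called by their labels in what follows.

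**Figure D1:**
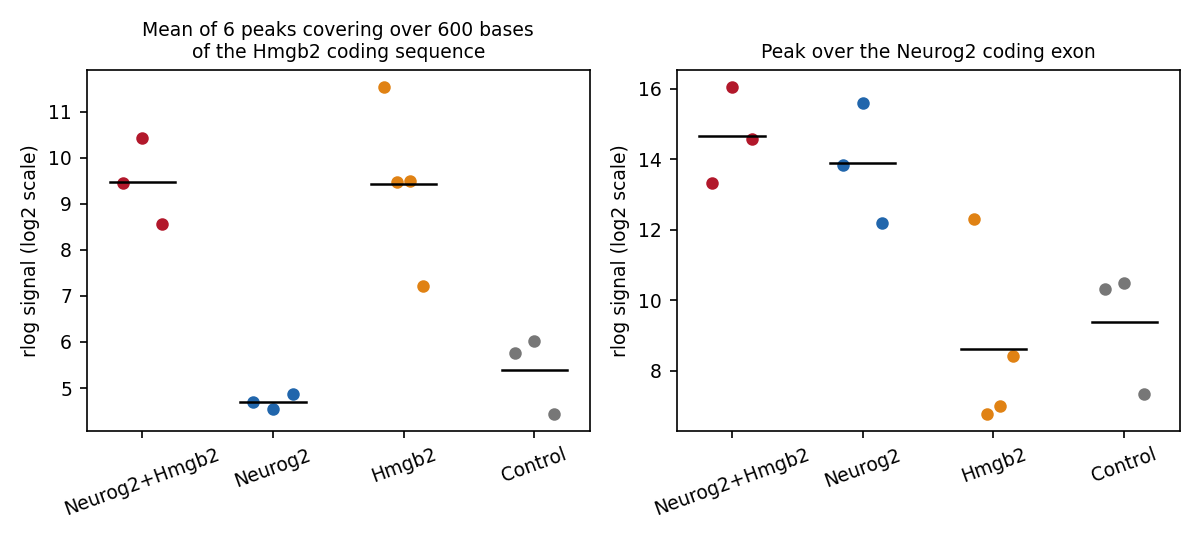
Rlog signal (log2 scale) over transduced sequence in EGF+bFGF culture, 1 point per library, with bars at the group means. Left, mean of 6 sites that cover the Hmgb2 coding sequence, where Neurog2+Hmgb2 libraries sit between 8.55 and 10.43 and Neurog2 libraries between 4.54 and 4.88. Right, the Neurog2 exon, where Neurog2+Hmgb2 and Neurog2 libraries overlap.

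Of 58 listed astrocyte genes, 48 had a promoter site in the peaks merged over all samples. Among them were Gfap, the intermediate filament of astrocytes, Aqp4, a water channel, and Slc1a3, a glutamate transporter. Of the lists for other cell types, 11 of 20 oligodendrocyte lineage genes, 7 of 24 microglia and immune genes, 5 of 18 endothelial genes and 18 of 26 fibroblast, meningeal and mural genes had one. So did 45 of 48 axon guidance genes, 37 of 46 neurogenic transcription factors and Notch ligands, and 47 of 63 synapse genes. A high share was thus not particular to astrocyte genes. Median signal ranged from 4.57 to 4.67 over the 6 libraries compared, and their mean correlation with their own group from 0.971 to 0.979. In bFGF culture, the library of Neurog2 replicate 2 stood apart from its group (0.935).

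The comparison asks whether Hmgb2 changes chromatin when it is added to Neurog2 in the culture in which Neurog2 alone already converts astrocytes well. None of the 45658 sites was called in either direction, a call being a difference over 1 or under -1 with an adjusted p under 0.05. Over all 45672 sites the same rule called 7 higher (0.0153%) and 0 lower (0%), and all 7 carry the Hmgb2 coding sequence. Among the 45658, 2269 had an unadjusted p under 0.05 (4.97%, against 2282 or 5.00% of all sites), 1364 of them higher (over all sites 1377, 3.01%) and 905 lower (1.98%), and the smallest adjusted p was 0.396. Without Neurog2 replicate 1 the 2269 became 1179, and a fit on only the 6 libraries compared had 3985 and called 4 sites higher and 1 lower.

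The differences were narrow. Their median was 0.007, their 5th and 95th percentiles were -0.29 and 0.356, and their extremes were -1.28 and 1.77. The median standard error was 0.182. For 44960 sites (98.5%) the 95% interval of the difference lay inside -1 to 1. For 31668 (69.4%) it lay inside a 1.5-fold change of the rlog signal either way. A difference of 1 in rlog signal thus lay outside the interval at nearly every site. As rlog shrinks differences of weak sites, a doubling of reads there can give a smaller difference. All 3 Neurog2+Hmgb2 libraries lay above all 3 Neurog2 libraries at 3438 sites (7.53%, against 3451 or 7.56% of all sites) and below them at 2992 (6.55%).

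**Figure D2:**
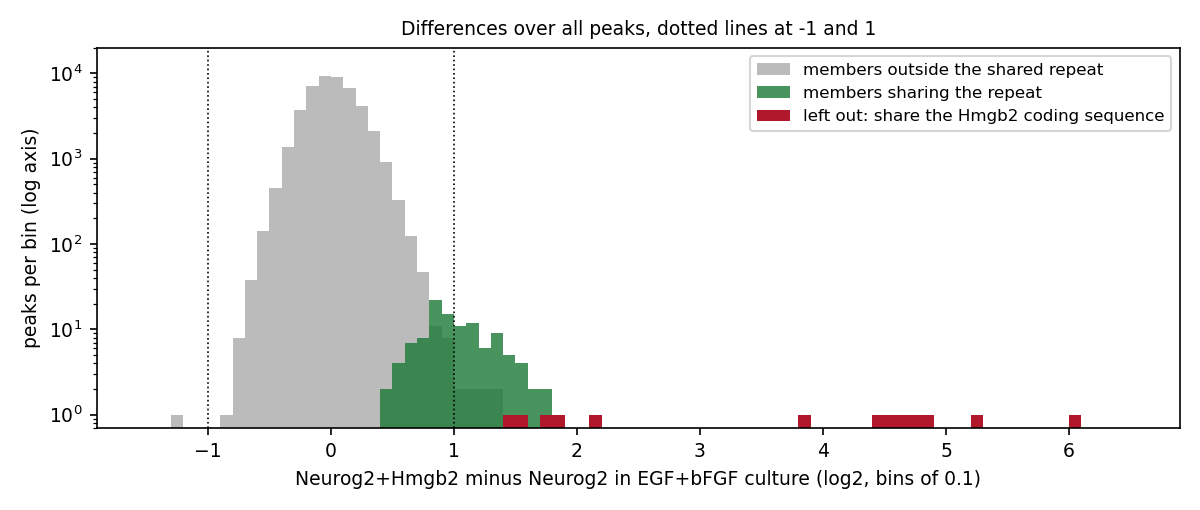
Number of sites (log axis) by the difference Neurog2+Hmgb2 minus Neurog2 in EGF+bFGF culture (log2, bins of 0.1). Sites outside a shared repeat are grey, 109 sites that share the repeat are green, and the left-out sites with Hmgb2 coding sequence are red. Past the dotted line at 1 stand 59 of the 45658 sites, 51 of them green, and past the line at -1 stands 1.

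The same addition in bFGF culture, in other libraries, called 0 sites higher and 0 lower (0% each), with 3241 of the 45658 at an unadjusted p under 0.05 (7.10%, against 3251 or 7.12% of all sites). Hmgb2 against Control in EGF+bFGF culture called 0 of the 45658, with 4177 at an unadjusted p under 0.05 (9.15%, against 4190 or 9.17% of all sites), and over all sites it called 1, the chr10 copy (0.00219%). No site passed a test of the difference between both cultures (1312 at an unadjusted p under 0.05, 2.87% of all sites), and none passed a test of whether the Hmgb2 effect differed with and without Neurog2 (1711, 3.75%). Without 1 library the first 3 of these counts moved by over 1.5 times: to 1998 in bFGF culture (without Neurog2+Hmgb2 replicate 2), to 1822 and 2232 for Hmgb2 against Control (without Hmgb2 replicate 2 and 3), and, for the difference between cultures, to 784 (without EGF+bFGF Neurog2 replicate 1) and to 2409, 1980 and 2193 (without bFGF Neurog2 replicate 1 and 3 and bFGF Neurog2+Hmgb2 replicate 1). Without the library labelled Hmgb2 replicate 1, Hmgb2 against Control had 5663 and 0 called.

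Neither of the side comparisons uses a library of the main one. Across the 45658 sites, which share libraries and signal range and are not independent, the difference correlated with that in bFGF culture at r = 0.259 and with Hmgb2 minus Control at r = 0.148. Within 10 bins of signal, equal in number of sites, these ranged from 0.101 to 0.587 and from -0.377 to 0.227. Of the 1364 sites higher at an unadjusted p under 0.05, 980 (71.8%) were also higher in bFGF culture and 983 (72.1%) with Hmgb2 against Control. Of the 905 lower ones, 279 (30.8%) were higher in bFGF culture and 205 (22.7%) with Hmgb2 against Control, where 50.2% and 49.8% of all 45658 were.

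Sites with the smallest p in each direction carry the name of the protein-coding gene whose transcription start site (TSS) lies closest, and they may regulate another gene. None passed after adjustment, so the values describe the sites that came nearest. The sites were picked on the Neurog2 libraries, so how these stood against Control is not independent of that choice. Most lay far from promoters: of 16, only the site at Pxmp2 was a promoter.

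The site with the smallest p lay in an intergenic region 766 kb from Dach1, a transcriptional cofactor of eye and limb development (chr14:97403228-97403727). It had 5.38, 5.32 and 5.40 in Neurog2+Hmgb2 cells, against 4.56, 4.59 and 4.65 in Neurog2 cells, a difference of 0.77 (SE 0.17, limma adjusted p = 0.396). The groups did not overlap, and the libraries of each lay close together. Hmgb2 cells averaged 5.02 ± 0.25 (SD, n = 4) and Control cells 4.59 ± 0.08 (SD, n = 3), so the Neurog2 cells were at the Control level.
Shown are the 300 bases, nearest the centre of the site, that hold the most of the motifs counted further on. The motifs are in capitals: CAGATG, the E-box that Neurog2 prefers, and TGAGTCA, the site of AP-1 factors (Fos and Jun).
Dach1 site, chr14:97403325-97403624, plus strand: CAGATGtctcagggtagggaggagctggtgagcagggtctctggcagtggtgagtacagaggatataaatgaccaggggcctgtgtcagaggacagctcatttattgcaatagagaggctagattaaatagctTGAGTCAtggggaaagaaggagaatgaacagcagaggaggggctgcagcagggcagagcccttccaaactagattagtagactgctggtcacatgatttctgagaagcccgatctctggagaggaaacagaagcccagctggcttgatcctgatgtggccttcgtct

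An intronic site of A330049N07Rik near Zwint, a kinetochore gene, had 5.75, 5.86 and 5.85 in Neurog2+Hmgb2 cells, against 4.62, 5.39 and 5.03 in Neurog2 cells (difference 0.81, SE 0.18, limma adjusted p = 0.544). A site 15.6 kb from Hpgd, which encodes a prostaglandin-degrading enzyme, had 6.01, 5.68 and 5.77, against 4.57, 5.22 and 5.11 in Neurog2 cells (difference 0.85, SE 0.20). In an intron of Snx29, a sorting nexin gene, the values were 3.53, 3.85 and 3.75 in Neurog2+Hmgb2 cells, against 3.09, 3.25 and 3.01 in Neurog2 cells (difference 0.59, SE 0.14). At Zwint and Snx29, Control cells averaged 5.70 ± 0.07 and 3.66 ± 0.13 (SD, n = 3), close to Neurog2+Hmgb2 cells, and the Neurog2 cells were the low group.

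At the sites near Slc39a10, a zinc transporter gene, and Igsf10, the order was another: Neurog2 cells already stood above Control, by 0.66 (SE 0.17) and 0.68 (SE 0.18), and Neurog2+Hmgb2 cells stood higher again, by 0.71 (SE 0.17) and 0.72 (SE 0.18). Slc39a10 had 5.14, 5.08 and 5.51 in Neurog2+Hmgb2 cells, against 4.62, 4.63 and 4.34 in Neurog2 cells. The sites near Ice1, a gene of small nuclear RNA transcription, and Wdr20rt differed by 0.78 (SE 0.19) and 0.61 (SE 0.16). In bFGF culture the differences of these 8 sites lay between -0.03 and 0.47.

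Among the sites with lower signal, an intron of Zfat, a zinc finger and AT-hook gene (chr15:68096601-68096892), had 3.01, 3.44 and 3.57 in Neurog2+Hmgb2 cells, against 4.07, 4.13 and 3.97 in Neurog2 cells. The groups did not overlap (difference -0.72, SE 0.17, limma adjusted p = 0.604). Control cells averaged 3.29 ± 0.06 (SD, n = 3), so that here Neurog2 alone stood above Control and Neurog2+Hmgb2 did not. The whole site is shown with its E-boxes in capitals, and it holds neither the AP-1 motif nor CAGATG. Neurog2 alone stood above Control there by 0.77 (limma adjusted p = 0.00492), in Neurog2 libraries that also served to pick the site.
Zfat site, chr15:68096601-68096892, plus strand: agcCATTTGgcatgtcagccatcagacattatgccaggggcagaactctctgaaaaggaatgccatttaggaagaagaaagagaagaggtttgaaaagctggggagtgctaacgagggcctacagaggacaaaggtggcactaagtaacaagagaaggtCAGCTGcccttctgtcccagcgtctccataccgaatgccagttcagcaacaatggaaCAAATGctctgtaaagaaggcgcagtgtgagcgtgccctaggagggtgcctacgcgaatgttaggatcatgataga

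An intron of Ghr, the growth hormone receptor gene, had the same order, with 3.19, 3.63 and 3.70 in Neurog2+Hmgb2 cells, against 4.27, 4.26 and 4.07 in Neurog2 cells (difference -0.69, SE 0.17) and a Control mean of 3.16. Sites near Tanc2, a postsynaptic scaffold gene, and in an intron of Slc14a2, a urea transporter gene, differed by -0.70 (SE 0.17) and -0.67 (SE 0.16), and both stood above Control with Neurog2 alone, by 0.45 and 0.55. Sites near Pck1, a gluconeogenic enzyme gene, and in Epha4, an ephrin receptor gene, differed by -0.57 (SE 0.14) and -0.56 (SE 0.15), and the Pxmp2 promoter by -0.46 (SE 0.12). Leaving out 1 library could not turn the sign at these sites, as the rule took only groups that do not overlap. In bFGF culture the differences of these sites and of the Dab2 site described next, 8 in all, lay between -0.28 and 0.65, and 5 of the 8 were above 0.

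**Figure D3:**
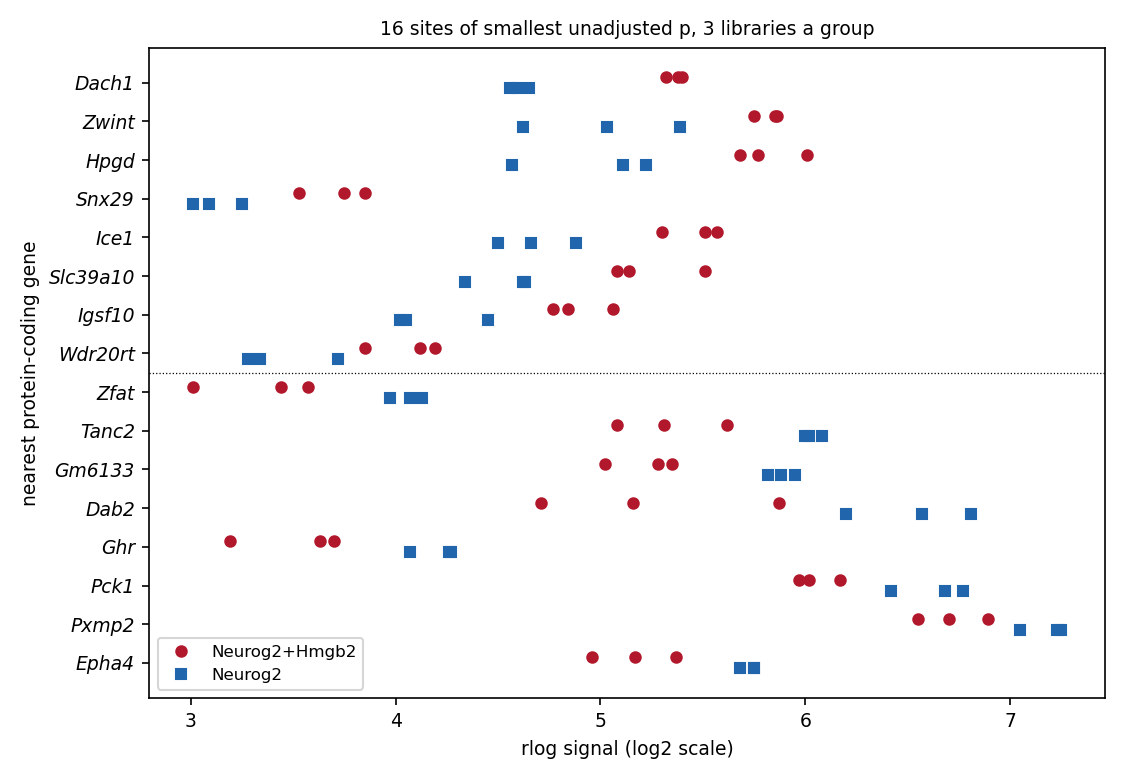
Rlog signal (log2 scale) in EGF+bFGF culture at the 16 sites of smallest unadjusted p, named by the nearest protein-coding gene, with circles for Neurog2+Hmgb2 libraries and squares for Neurog2 libraries. The upper 8 are higher in Neurog2+Hmgb2 cells and the lower 8 are lower, and the groups do not overlap because the rule took such sites. None has an adjusted p under 0.05.

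The only site below -1 lay in an intron of Dab2, an endocytic adaptor gene. It had 4.71, 5.16 and 5.87 in Neurog2+Hmgb2 cells, against 6.20, 6.57 and 6.81 in Neurog2 cells, a difference of -1.28 (SE 0.32, limma adjusted p = 0.787). In bFGF culture its difference was 0.65 (SE 0.32), and 47.5% of its bases are masked as repeat. Ralgapa2 and Mfge8 followed among the lower sites, at -0.85 (SE 0.29) and -0.76 (SE 0.31).

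The largest differences upward were at repeats and had wide errors. A site in an intron of Camk2b (chr11:6006184-6006549) had 11.29, 13.52 and 11.90 in Neurog2+Hmgb2 cells, against 10.62, 12.09 and 8.70 in Neurog2 cells. The groups overlapped, and the difference of 1.77 had an SE of 1.12 (limma adjusted p = 0.956). A neighbouring site of the same intron and a site in Serinc3 had 1.75 and 1.64. These 3 sites are among 109 that share a repeat, with a median of 88.3% of their bases masked as repeat, against 6.9% over the 45658 sites.

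Averaged over the 109 sites, the signal was 5.41, 7.00 and 5.70 with Neurog2+Hmgb2, 6.99, 5.55, 5.42 and 4.29 with Hmgb2, 4.82, 5.85 and 4.35 with Neurog2, and 5.96, 7.88 and 6.59 with Control. The groups overlapped, and the second library was the highest of its group with Neurog2+Hmgb2, with Neurog2 and with Control. The 109 sites held 51 of the 59 differences over 1, and all 59 had an adjusted p between 0.956 and 0.958. Their median difference was 0.985, against 0.525 in bFGF culture and -1.252 with Hmgb2 against Control.

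Of the 8 sites over 1 outside the repeat, a site in an exon of Tmx3 on chr18 (difference 1.28, SE 0.36, limma adjusted p = 0.956) lay within 500 bp of a match to the Hmgb2 coding sequence and was also higher with Hmgb2 against Control, by 1.11. It was picked out after its values were seen.

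Where sites lay and how strong they were went with small shifts, most of which depended on the scaling. Promoter sites, within 3 kb of a TSS of a protein-coding gene, made up 34% of the 45658 and had a median difference of -0.045. Gene-body sites (35.8%) had 0.032 and intergenic sites (30.2%) 0.051. With quantile normalization, which gives all libraries the same distribution, these medians were -0.019, -0.007 and 0.009, so that of gene-body sites changed sign. By signal in Control cells of both cultures, the medians lay between 0.039 and 0.056 in the weakest 6 of 10 bins. The median was -0.112 in the strongest bin, where 15 sites were higher and 209 lower at an unadjusted p under 0.05. In that bin the libraries averaged 7.29, 7.20 and 7.18 with Neurog2+Hmgb2, against 7.31, 7.32 and 7.30 with Neurog2.

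The first Neurog2+Hmgb2 library was close to the Neurog2 libraries in these strong sites, and the groups did not overlap. The strongest bin was also low in the other comparisons, with medians of -0.138 in bFGF culture and -0.130 with Hmgb2 against Control. The bins were formed on the Control libraries of both cultures, so the median of Hmgb2 against Control is not independent of them. The distance between the strongest and the weakest bin, a measure of the contrast of a library, was 4.53, 4.35 and 4.30 with Neurog2+Hmgb2, against 4.56, 4.52 and 4.48 with Neurog2. Its part in the shift of strong sites was not tested. Sites over 1000 bp wide had a median of -0.073, and sites with at least 55% GC -0.041, against 0.061 under 45% GC. With quantile normalization the median of the strongest bin was -0.023, those of the weakest 6 bins lay between -0.010 and 0.003, and those by width and GC were -0.002, -0.021 and 0.010.

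A short motif went with the direction of the difference at sites away from promoters. It was the AP-1 site, TGAGTCA or TGACTCA (one is the other read on the opposite strand), searched after the values had been seen. It lay in 27.9% of the sites with sequence, in 34.9% of distal sites, those outside promoters, and in 14.2% of promoter sites. The 10484 distal sites with it had a median difference of 0.111, with 756 higher (7.21%) and 50 lower (0.477%) at an unadjusted p under 0.05. The 19551 without it had 0.002, with 430 higher (2.20%) and 487 lower (2.49%). In the strongest bin of signal, distal sites had medians of 0.020 with the motif (183 sites) and 0.015 without it (488 sites), unlike the -0.112 over all sites of that bin, most of which are promoters.

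Among all 2269 sites at an unadjusted p under 0.05, 59.2% of the higher and 9.28% of the lower ones held the motif. The difference between both medians was 0.108, 0.059 without Neurog2 replicate 1 and up to 0.148 without another of the 6 libraries. It was positive in 10 of 10 bins of signal, but all bins hold the same 6 libraries and are not independent. Per library, the mean of distal sites with minus without the motif was 0.029, -0.033 and -0.090 with Neurog2+Hmgb2, -0.001, 0.225, 0.210 and 0.013 with Hmgb2, -0.249, -0.122 and -0.060 with Neurog2, and 0.031, -0.027 and -0.025 with Control. Neurog2+Hmgb2 and Neurog2 libraries overlapped, and the first Neurog2 library was the lowest.

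Set beside it, Hmgb2 against Control, in other libraries of the same culture, had medians of 0.124 with and 0.016 without the motif. In bFGF culture Neurog2+Hmgb2 minus Neurog2 had 0 with and 0.035 without. Neurog2 minus Control in EGF+bFGF culture, which shares the Neurog2 libraries, had -0.124 with and -0.004 without. Without the library labelled Hmgb2 replicate 1, the medians of Hmgb2 against Control were 0.148 and 0.003. The direction in bFGF culture rested on single libraries. Per library, with minus without the motif was 0.106, -0.085 and 0.010 with Neurog2+Hmgb2, against -0.029, 0.229 and -0.041 with Neurog2. Without Neurog2 replicate 2, the library that stood apart, the bFGF medians were 0.066 with and 0.017 without, and without Neurog2+Hmgb2 replicate 2 they were 0.036 and 0.028. The difference between cultures at these sites was not tested. With quantile normalization the medians in EGF+bFGF culture were 0.066 with and -0.036 without.

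**Figure D4:**
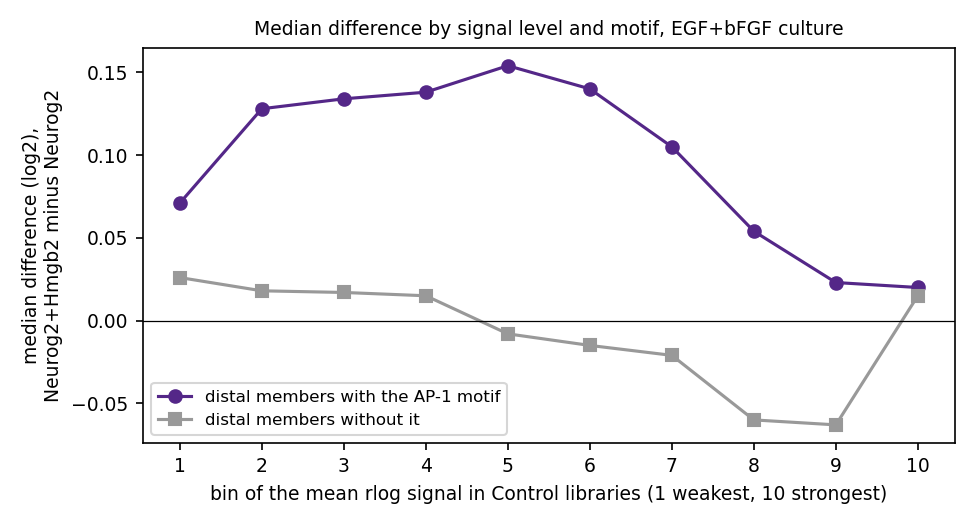
Median difference Neurog2+Hmgb2 minus Neurog2 in EGF+bFGF culture (log2) of distal sites with the AP-1 motif (circles) and without it (squares). Bins run from weakest (1) to strongest (10) by the mean signal in Control libraries of both cultures. The circles lie above the squares in 10 of 10 bins, which share the same libraries, and no site in either set passed after adjustment.

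Motifs of Neurog2 and POU factors showed no such shift. Distal sites with CAGATG or CATCTG had a median difference of 0.038, against 0.042 without. Sites with the POU octamer, ATGCAAAT or ATTTGCAT, had -0.012, against 0.008 without, and they were 3.31% of the 45658.

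Sites that respond to Neurog2 were taken from bFGF culture, whose libraries the comparison does not use. There, Neurog2 against Control called 60 sites higher (0.131%) and 13 lower (0.0285%), and Neurog2+Hmgb2 against Control called 196 higher (0.429%). In EGF+bFGF culture, the 60 sites, the Neurog2 exon among them, averaged 5.22, 5.51 and 5.63 with Neurog2+Hmgb2, 4.54, 4.18, 4.15 and 4.33 with Hmgb2, 5.50, 5.60 and 5.21 with Neurog2, and 4.35, 4.49 and 4.21 with Control. On average they stood above Control with Neurog2 whether or not Hmgb2 was added, and the Neurog2+Hmgb2 and Neurog2 libraries overlapped. Of the 60, 37 were called with Neurog2 against Control in EGF+bFGF culture.

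Their median difference with added Hmgb2 was -0.014, with 27 higher and 33 lower, 3 and 1 of them at an unadjusted p under 0.05, and 0 called. The 95% interval lay inside -1 to 1 at 58 of the 60. CAGATG or CATCTG lay in 91.7% of them, against 39.9% of all sites with sequence. The 13 sites called lower with Neurog2 in bFGF culture had a median difference of 0.080.

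In bFGF culture, 155 sites were called with Neurog2+Hmgb2 and not with Neurog2, and 148 of them are without Hmgb2 sequence. Having been chosen on it, their difference in bFGF culture was high (median 0.366). In EGF+bFGF culture the same 148 sites had a median difference of 0.033, with 82 higher and 66 lower, 8 and 3 at an unadjusted p under 0.05, and 147 intervals inside -1 to 1. They averaged 4.75, 5.00 and 5.21 with Neurog2+Hmgb2, 4.09, 3.81, 3.80 and 4.01 with Hmgb2, 5.04, 5.03 and 4.75 with Neurog2, and 3.94, 4.06 and 3.88 with Control. In this culture Neurog2 alone stood above Control at them, by a median of 0.967, and 70 of the 148 were called in that comparison. Neurog2 alone also stood above Control at them in bFGF culture, by a median of 0.768, without passing the call there.

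**Figure D5:**
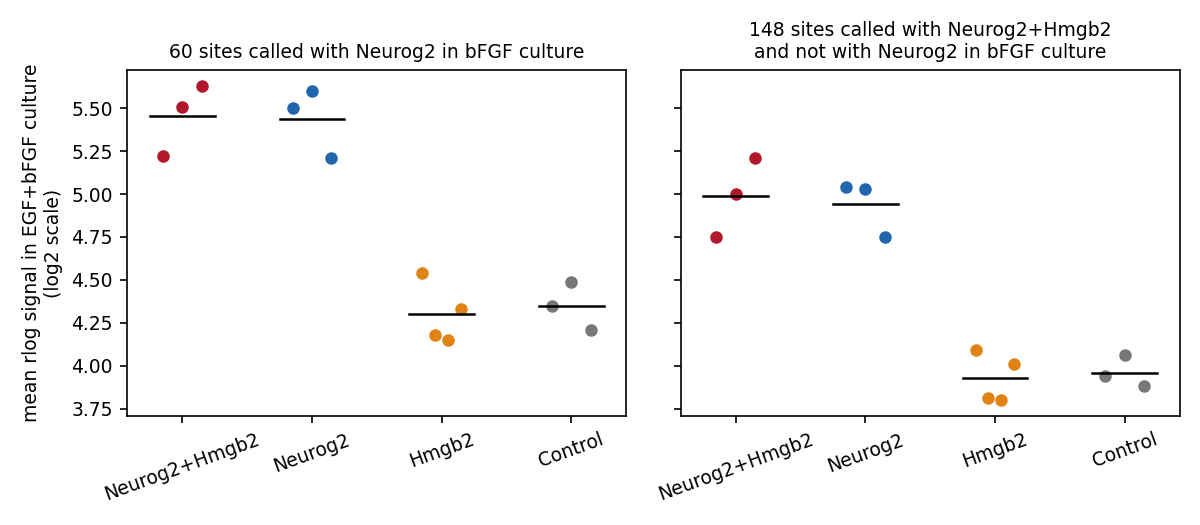
Mean rlog signal (log2 scale) in EGF+bFGF culture, 1 point per library with bars at group means, over sites chosen in bFGF culture: 60 called with Neurog2 (left) and 148 called with Neurog2+Hmgb2 and not with Neurog2 (right). In both panels Neurog2+Hmgb2 and Neurog2 libraries overlap, and all of them lie above the Hmgb2 and Control libraries.

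Single sites showed both directions. The distal site of Neurod4, a proneural target of Neurog2 (chr10:130263208-130263682), had 4.75, 5.39 and 5.61 in Neurog2+Hmgb2 cells, against 5.91, 5.78 and 5.21 in Neurog2 cells. The groups overlapped (difference -0.38, SE 0.23, limma adjusted p = 0.956), and both stood over a Control mean of 4.02. A site 345 kb from Ppp1r3a, a glycogen phosphatase subunit gene, had 5.29, 5.71 and 5.80 in Neurog2+Hmgb2 cells, against 4.79, 5.51 and 4.83 in Neurog2 cells, a difference of 0.56 (SE 0.18, limma adjusted p = 0.956). For both, the 300 bases with the most E-boxes (CANNTG, the sequence that Neurog2 binds) are shown, taken nearest the centre of the site. The E-boxes are in capitals.
Neurod4 site, chr10:130263295-130263594, plus strand: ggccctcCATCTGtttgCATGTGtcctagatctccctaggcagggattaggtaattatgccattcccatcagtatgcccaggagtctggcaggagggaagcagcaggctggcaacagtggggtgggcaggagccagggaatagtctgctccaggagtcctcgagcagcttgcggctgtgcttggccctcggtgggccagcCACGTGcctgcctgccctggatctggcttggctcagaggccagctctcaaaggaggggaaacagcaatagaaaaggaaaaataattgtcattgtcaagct
Ppp1r3a site, chr6:14409799-14410098, plus strand: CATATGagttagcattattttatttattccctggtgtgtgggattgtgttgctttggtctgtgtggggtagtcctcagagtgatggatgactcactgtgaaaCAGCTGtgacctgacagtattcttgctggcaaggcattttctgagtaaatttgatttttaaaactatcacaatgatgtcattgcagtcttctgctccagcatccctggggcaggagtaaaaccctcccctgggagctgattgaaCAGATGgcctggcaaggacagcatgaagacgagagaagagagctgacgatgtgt

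At the other 4 of the largest sites of bFGF culture the groups overlapped. The Serping1 promoter, of a complement inhibitor gene, had 5.85, 6.31 and 6.63 in Neurog2+Hmgb2 cells, against 6.69, 6.75 and 6.23 in Neurog2 cells (difference -0.29, SE 0.20). A site near Gm8797 differed by -0.12 (SE 0.21), a site 928 kb from Ncam2, a neural cell adhesion gene, by 0.33 (SE 0.19), and a site in 1700017N19Rik by -0.46 (SE 0.22, limma adjusted p = 0.956).

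Promoters of 18 gene lists were read against all 13499 genes with a promoter site, of which 0 were called, 115 were higher and 367 lower at an unadjusted p under 0.05, with a median difference of -0.066 (-0.024 with quantile normalization). Whatever their p, 4456 of the 13499 were higher and 9043 lower, so most promoters leaned lower. In no list was a gene called. The list of 10 core neurogenic genes holds 9 that the study named, and Gadd45g, which was added to them. The study took some of the 9 from an earlier report and singled out the others from mRNA of these cultures. Of the 10, 9 had a promoter site, with a median of -0.131, 1 higher and 8 lower, against -0.09 at promoters of like signal. Shf had 6.59, 6.39 and 6.38 in Neurog2+Hmgb2 cells, against 6.89, 6.63 and 6.77 in Neurog2 cells (difference -0.31, SE 0.15, limma adjusted p = 0.956). Hes6, a Notch pathway regulator, had 7.48, 7.28 and 7.28, against 7.76, 7.71 and 7.61 in Neurog2 cells (-0.34, SE 0.19).

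Neither Shf nor Hes6 overlapped between groups, but neither passed after adjustment. Prox1, a homeobox gene of newborn neurons, differed by -0.20 (SE 0.17), and Sox11, Slit1, Insm1, Gadd45g and Lrp8 by between -0.13 and -0.03. Neurod4 was the exception, at 0.13 (SE 0.19). Of the 5 synapse examples, which the study had picked on samples of this series, so that their direction is no independent evidence, the Artn promoter, of a neurotrophic ligand, had 4.33, 4.24 and 4.24 in Neurog2+Hmgb2 cells, against 3.85, 3.96 and 3.83 in Neurog2 cells.

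Artn did not overlap between groups (difference 0.39, SE 0.15, limma adjusted p = 0.956), and its difference in bFGF culture was 0.38 (SE 0.15). Cplx2, Rasd2, Calb1 and Kif1a, genes of neurotransmitter release, striatal signalling, calcium buffering and axonal transport, differed by 0.08 (SE 0.15), 0.07 (SE 0.15), 0.17 (SE 0.36) and -0.02 (SE 0.24). The 95% intervals of these 4 differences all included 0.

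Neurogenic transcription factors and Notch ligands (37 of 46 measured) had a median of -0.021, neuronal cytoskeleton and early neuronal genes (30 of 41) -0.003, and axon guidance genes (45 of 48) -0.019, with 0 genes at an unadjusted p under 0.05 in each. At promoters of like signal the medians were -0.031, -0.054 and -0.075. St18 and Eomes, neuronal differentiation factors, had 0.37 (SE 0.18) and 0.31 (SE 0.16), Btg2, an antiproliferative gene of neurogenic divisions, -0.27 (SE 0.14), Mapt, the tau gene, -0.27 (SE 0.15), Celf4, an RNA-binding gene, 0.36 (SE 0.19), Dpysl4, a growth cone gene, -0.37 (SE 0.23), and the axon guidance receptor genes Plxnb1, Plxnc1 and Dcc -0.30 (SE 0.20), 0.33 (SE 0.23) and 0.25 (SE 0.18).

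Synapse genes (47 of 63) had a median of 0.026, with 2 higher and 4 lower at an unadjusted p under 0.05. Gria4, an AMPA receptor subunit gene, had 0.44 (SE 0.16), Syn2 and Rab3a, both of synaptic vesicles, -0.42 (SE 0.17) and -0.31 (SE 0.13). Potassium channel genes (37 of 50) had a median of 0.063, and in them Kcnj10, the main glial inward rectifier gene, had -0.47 (SE 0.17), Kcnh5 0.36 (SE 0.15) and Kcnf1 0.34 (SE 0.17). Members of both lists stood on either side of 0. At promoters of like signal the medians were -0.048 for synapse genes and -0.031 for potassium channel genes.

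Astrocyte genes had a median of -0.139, with 13 higher and 35 lower, against -0.032 at promoters of like signal. Their mean was 5.90, 5.95 and 5.87 with Neurog2+Hmgb2, against 6.05, 6.00 and 6.00 with Neurog2, and the groups did not overlap by a narrow margin. At an unadjusted p under 0.05 were 1 higher and 3 lower: Mlc1, an astrocyte membrane protein gene, had -0.47 (SE 0.20), Fabp7, a radial glial fatty acid carrier gene, -0.36 (SE 0.14), and Apoe, a lipid carrier gene, -0.36, whereas Ntrk2, a neurotrophin receptor gene, had 0.45 (SE 0.17). Gfap had -0.36, Aqp4 -0.25 and Slc1a3 -0.27, and none of them reached an unadjusted p of 0.05.

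Cell cycle genes (71 of 72) had a median of -0.148, with 8 higher and 63 lower, 9 of those lower at an unadjusted p under 0.05, against -0.082 at promoters of like signal. Cenpf, a kinetochore gene, had 6.70, 6.64 and 6.87 in Neurog2+Hmgb2 cells, against 7.00, 7.32 and 7.31 in Neurog2 cells (difference -0.47, SE 0.16, limma adjusted p = 0.956). Cdc6, which loads the replicative helicase, and Cdkn1b, which encodes a cyclin-dependent kinase inhibitor, had -0.40 (SE 0.17) and -0.32 (SE 0.14). The list mean was 6.53, 6.38 and 6.35 with Neurog2+Hmgb2, against 6.59, 6.54 and 6.60 with Neurog2, and the groups did not overlap.

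High mobility group genes (17 of 20, median -0.142) included Hmgb1, the closest relative of Hmgb2, at -0.31 (SE 0.14), Hmgn1 at -0.26 (SE 0.13) and Hmg20b at -0.28 (SE 0.15). Chromatin remodelling and linker histone genes (38 of 46) had a median of -0.113, with Actl6a at -0.28 (SE 0.13), Chd8 at -0.29 (SE 0.14) and Rcor1 at -0.24 (SE 0.13). Growth factor and MAPK response genes (33 of 36) had -0.118, with Spry2 and Dusp5, feedback inhibitors of the pathway, at -0.25 (SE 0.13) and -0.23 (SE 0.15), and Fosl1, an AP-1 subunit gene, at 0.26 (SE 0.20). Actin, stress fibre and adhesion genes (50 of 52) had -0.104, with Cav1 at 0.37 (SE 0.15), Itgb1 at -0.34 (SE 0.15) and Flna at -0.36 (SE 0.18). At promoters of like signal the medians lay at -0.100, -0.104, -0.090 and -0.111 for these 4 lists. With quantile normalization these medians were -0.065, -0.034, -0.035 and -0.036, and those of core neurogenic and cell cycle genes -0.051 and -0.077.

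Of the other cell types, oligodendrocyte lineage genes had a median of -0.042, microglia and immune genes -0.026, fibroblast, meningeal and mural genes -0.047, and the 4 measured of 18 pluripotency genes -0.109. Endothelial genes had 0.166 over 5 genes, among them Esam, an endothelial adhesion molecule gene, with 5.28, 5.26 and 5.09 in Neurog2+Hmgb2 cells, against 4.74, 4.85 and 4.53 in Neurog2 cells. Esam differed by 0.50 (SE 0.16, limma adjusted p = 0.956), with -0.14 in bFGF culture and -0.13 with Hmgb2 against Control. Mbp, Mpeg1, Fn1 and Klf4, which led the other 4 lists by p, had -0.23 (SE 0.15), -0.29 (SE 0.19), -0.21 (SE 0.14) and -0.18 (SE 0.18). At promoters of like signal the medians were -0.007, 0.03, 0.009 and -0.106 for these 4 lists, and 0.03 for endothelial genes.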

How the data were processed

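ATAC-seq libraries of sorted astrocytes were compared on the values that the authors deposited, which are on the log2 scale: regularized logarithms (rlog) of read counts per peak, from DESeq2, which put libraries on 1 scale and shrink differences of weak peaks. Following the study's methods, the authors had checked reads with FastQC, removed adapters with cutadapt, mapped to mm10 using Bowtie2, called peaks in each sample with Genrich and merged them. The version of DESeq2 that the authors used is 1.36.0 per the labels. As the depth of the libraries is unknown, counting intervals could not be given, and 0 per-sample columns were unused. Starts in the deposited file count from 0 and are printed counting from 1.

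With limma 3.58.1 (R 4.3.3), 8 group means were fitted to each peak in 25 libraries (17 residual degrees of freedom, empirical Bayes with a mean trend), with Benjamini-Hochberg adjustment over all 45672 peaks. Called sites had a difference over 1 either way at an adjusted p under 0.05. The fit was tested on simulated data. Matches to the Hmgb2 coding sequence were found with blastn 2.17.0 (E-value limit 1e-10), and genes, sequences and motifs (both strands, 106 scaffold sites left out) were taken from GRCm38 with GENCODE models. Gene lists were read at the promoter peak with the highest mean. Named were the 8 sites of smallest p in each direction with groups that do not overlap, the 3 largest differences each way, up to 3 genes a list by p, all genes of the 2 lists the study named, the 6 largest sites of Neurog2 in bFGF culture, and Neurog2, Hmgb2 and the Neurod4 site. Sites and lists were chosen with earlier results of these data known. Alternatives changed the libraries, scaling, filters, variance prior, call limit and replicate block. The same replicate number correlated at 0.007, 0.367 and -0.151 between both groups. A few sites and genes are not reported here.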

Additional observations from a re-analysis of the deposited data

How the results depend on the processing

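Called sites of the main comparison stayed at 0 in each direction under the other settings run, except as follows. With only the 6 libraries compared, 4 sites were called higher and 1 lower, among them sites near Gm21750 and Slitrk1 and in Tmx3 and Dab2, with differences of 1.13, 1.09, 1.28 and -1.28, and 3985 sites had an unadjusted p under 0.05. With array weights that number was 5098, and the sites near Zwint, Ice1 and Dach1 and in Snx29 had adjusted p under 0.05 with differences under 1. Leaving out no peak gave the 7 calls at Hmgb2 sequence, and counting unadjusted p alone gave 1364 higher and 905 lower. Without 1 library the number at an unadjusted p under 0.05 lay between 1179, without Neurog2 replicate 1, and 2698, against 2269. In bFGF culture it lay between 1998, without Neurog2+Hmgb2 replicate 2, and 4770, for Hmgb2 against Control between 1822, without Hmgb2 replicate 2, and 6066, with 1 called lower without Hmgb2 replicate 4 and 0 otherwise, for the difference between cultures between 784, without EGF+bFGF Neurog2 replicate 1, and 2409, without bFGF Neurog2 replicate 1, and for the difference with and without Neurog2 between 1270 and 2304.

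Replicate numbers were not shown to pair libraries. With the replicate block, 2758 sites of the main comparison had an unadjusted p under 0.05 and 0 were called. Hmgb2 against Control with the block had 1 called lower and 6953 at an unadjusted p under 0.05, and the difference with and without Neurog2 had 2669. The astrocyte median of -0.139 became -0.095 with all promoter peaks of a gene, -0.090 within 1 kb and -0.099 with quantile normalization, and the microglia median -0.083 with quantile normalization. That scaling also brought the medians of all promoters, of core neurogenic, cell cycle, high mobility group, chromatin, MAPK and actin genes closer to 0, to between -0.024 and -0.077, and turned the sign for axon guidance (0.032) and early neuronal genes (0.006). Quantile normalization of the bins, widths and GC classes, and leaving out libraries for the AP-1 motif, were chosen after seeing the data.

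Leaving out 1 library turned the sign of 11 of 93 named sites and promoters, none of them called. Their differences ranged from -0.08 to 1.626 at the Neurog2 exon, -0.28 to 0.008 near Gm8797, -0.243 to 0.063 at Sox11, -0.217 to 0.013 at Slit1, -0.235 to 0.08 at Gadd45g, -0.13 to 0.076 at Lrp8, -0.016 to 0.159 at Cplx2, -0.03 to 0.135 at Rasd2, -0.038 to 0.399 at Calb1, -0.161 to 0.099 at Kif1a and -0.177 to 0.013 at Tfcp2l1. The cause of these changes was not tested. Sites picked for groups that do not overlap could not change sign in this way. Depth is unknown, and with 3 libraries a group the 95% interval of a difference had a median half-width of 0.372 on the log2 scale.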
